A study of Mus musculus with 7 samples.

Results

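The genes described here make, carry, break down or sense prostaglandins. They were chosen by name, as array rows that the platform annotation gives to 1 gene only. Of 9 genes listed, 7 had such a row, out of 13562 genes named on the arrays. These were Ptgs2, Ptges and Ptgis among the synthases, the transporter gene Slco2a1, the degrading enzyme gene Hpgd, and the receptor genes Ptger4 and Ptgfr. The annotation gave no row to Ptgs1, the constitutive cyclooxygenase, or to Ptger2, a receptor for prostaglandin E2, and neither was analysed here. The list was drawn up with results of these data known: Ptgs2 and Slco2a1 stand in it because they were lower in the KO library of each WT and KO pair. Those differences are therefore given as a description, and nothing is tested on them.

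The series profiled 7 mouse samples on 1 Affymetrix array each. V6.5 embryonic stem cells (ESCs) were profiled as Utx -/Y (KO) and Utx +/Y (WT). Utx, encoded by Kdm6a, is a demethylase of lysine 27 of histone H3. Mouse embryonic fibroblasts (MEFs) named V19-OSKM were profiled as Utx -/Y and Utx +/Y, with and without doxycycline (DOX), which in these cells induces the factors Oct4, Sox2, Klf4 and Myc (OSKM) that reprogram fibroblasts. All 4 MEF libraries therefore carry the inducible factors. The last array held fibroblasts made from Nanog -/- ESCs and transduced with OSKM lentivirus for 8 days. The labels give 1 medium, N2B27 with 2i/LIF, for every sample, and neither the length of the DOX treatment nor the number of clones, animals or cultures behind a sample is given in the sources used here. With 1 array per condition a difference below carries no error and no p-value, and the precision of each value is limited by that number.

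Levels below are log2 values as deposited, and differences are differences of them, so that 1 unit is 2-fold. A floor was set at the 40th percentile of all values (7.34), and a gene was counted as different where 2 arrays differed by 2-fold or more and the higher value exceeded the floor. Where the lower value is under the floor, the fold is bounded only from the floor and that bound can be less than 2-fold. The bound is given for members, while differences of other genes stand without it. Levels of different genes come from different probes and are not compared with each other. The arrays of the 6 Utx samples had medians of 7.68 to 7.84 and the Nanog KO array one of 8.55. Each KO library had less Kdm6a signal than its WT library, with differences of -1.15 in ESCs, -1.36 in MEFs with DOX and -1.90 in MEFs without DOX. Pou5f1, the gene of Oct4, read 5.12 in the library labelled KO with DOX and 11.26 in the one labelled KO without DOX, against 12.59 in WT MEFs with DOX and 8.19 in WT MEFs without DOX. By Pou5f1 the KO libraries thus go against their DOX labels. They are called here by their labels only, and each of them was also set against both WT MEF libraries.

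Prostaglandins are lipid signals made from arachidonic acid that phospholipases release from membranes. Cyclooxygenases turn it into prostaglandin H2, and terminal synthases make prostaglandin E2, prostacyclin and the other members from that. The transporter encoded by Slco2a1 takes prostaglandins up into cells, where the dehydrogenase encoded by Hpgd inactivates them, and G-protein coupled receptors on the cell surface sense those that remain outside. Fibroblasts and macrophages are both known sources of prostaglandins, and Ptgs2 is the classic inducible gene of the pathway.

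The promoters of Ptgs2 and Slco2a1 are shown because these genes were lower together in the KO libraries, and that of Ptges because this gene, whose enzyme acts just after the cyclooxygenase, was lower in KO ESCs but higher in the library labelled KO with DOX. Each sequence runs from 250 bases before the annotated start through the first 30 bases from it, from RefSeq on build GRCm38.p6, 5′ to 3′ on the strand of the gene. Ptgs2 lies at chr1:150099781-150100060 on the plus strand, Slco2a1 at chr9:103008237-103008516 on the plus strand, and Ptges at chr2:30903268-30903547 on the minus strand. Capitals mark matches to the motifs named below.
Ptgs2: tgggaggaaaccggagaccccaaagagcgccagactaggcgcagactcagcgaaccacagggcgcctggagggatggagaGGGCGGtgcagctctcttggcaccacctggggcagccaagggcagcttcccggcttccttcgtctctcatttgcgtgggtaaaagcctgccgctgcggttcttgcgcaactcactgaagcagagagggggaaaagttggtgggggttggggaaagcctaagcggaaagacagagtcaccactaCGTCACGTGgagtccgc
Slco2a1: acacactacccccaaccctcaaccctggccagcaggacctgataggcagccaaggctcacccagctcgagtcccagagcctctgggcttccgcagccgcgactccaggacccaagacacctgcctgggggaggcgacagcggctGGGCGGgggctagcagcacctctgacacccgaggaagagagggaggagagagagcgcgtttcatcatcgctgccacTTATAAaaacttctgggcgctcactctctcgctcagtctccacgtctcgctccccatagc
Ptges: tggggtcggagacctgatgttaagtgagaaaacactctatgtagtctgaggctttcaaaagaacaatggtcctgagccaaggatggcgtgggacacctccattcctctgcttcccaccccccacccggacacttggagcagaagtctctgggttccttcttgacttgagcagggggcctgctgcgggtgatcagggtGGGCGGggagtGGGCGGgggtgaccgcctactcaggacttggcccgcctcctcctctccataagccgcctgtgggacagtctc
Motifs were searched on both strands as TGACG, the core of the cyclic AMP response element, and as CACGTG, the E-box. The others were TATAA, found near the start of many inducible genes, and the GC box, written GGGCGG. A search for CCAAT was made as well and found no match in these 3 windows.

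The Ptgs2 window held the cyclic AMP core at bases 14 to 18 counted from the annotated start, overlapped by an E-box at bases 17 to 22. The core was present in 19.9% and the E-box in 6.79% of all 32851 promoter windows of this length. The Slco2a1 window held neither, and had TATAA matches on both strands, overlapping each other, between 30 and 25 bases before the start, a motif found in 24% of windows. All 3 windows held the GC box, found in 34.7% of windows, and the Ptges window held it at 2 places. Promoter sequences were found for 8 of the 9 listed genes, all but Ptgis. These matches describe the letters of each window and no binding was measured.

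Among the synthases, Ptgs2, the inducible cyclooxygenase, was well above the floor on all 7 arrays. It read 8.93 in KO ESCs, against 10.91 in WT ESCs. MEFs with DOX read 10.84 in the library labelled KO, against 12.43 in WT, and without DOX 9.29 in the library labelled KO, against 11.78 in WT. The Nanog KO array read 9.66. The order was WT MEFs with DOX, WT MEFs without DOX, WT ESCs, the library labelled KO with DOX, the Nanog KO array, the library labelled KO without DOX and KO ESCs. Every WT library thus stood above every library labelled KO, although the WT ESCs and the library labelled KO with DOX were only 0.07 apart. The places of the Nanog KO array and the library labelled KO without DOX depend on the scaling. With medians aligned they differed from WT MEFs without DOX by -2.86 and -2.36, and after quantile normalization by -2.82 and -2.38.

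Ptges, which encodes the microsomal synthase of prostaglandin E2, followed another order. It read 8.36 in KO ESCs, against 9.57 in WT ESCs, and 10.75 on the Nanog KO array. The MEF libraries with DOX read 10.19 in the library labelled KO, against 7.99 in WT, and without DOX 10.31 in the library labelled KO, against 10.38 in WT. WT MEFs with DOX had the lowest Ptges value of the 7 arrays, in the library where Ptgs2 was at its highest.

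Ptgis, which encodes prostacyclin synthase, read 7.44 in KO ESCs, against 7.89 in WT ESCs, and 11.22 on the Nanog KO array. For MEFs with DOX the values were 9.21 in the library labelled KO, against 7.87 in WT, and without DOX 9.34 in the library labelled KO, against 9.23 in WT. The value of WT MEFs with DOX lay between those of the ESCs, and the other Utx MEF libraries lay within 0.14 of each other.

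Slco2a1, the prostaglandin transporter gene, was highest in WT MEFs. It read 6.99 in KO ESCs, under the floor, against 8.08 in WT ESCs, and 10.40 on the Nanog KO array. MEFs under DOX read 9.01 in the library labelled KO, against 11.35 in WT, and without DOX 9.54 in the library labelled KO, against 10.70 in WT. As deposited, both KO-labelled libraries were the lowest of the fibroblast arrays, and the Nanog KO array came between them and the WT libraries. With medians aligned, the Nanog KO array differed from WT MEFs without DOX by -1.04. The library labelled KO without DOX then differed by -1.03, so this order depends on the scaling.

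Hpgd, the gene of the dehydrogenase that inactivates prostaglandins, exceeded the floor on 1 array only. It read 9.90 on the Nanog KO array and 4.90 in KO ESCs, against 5.29 in WT ESCs. MEFs given DOX read 6.42 in the library labelled KO, against 4.62 in WT, and without DOX 4.96 in the library labelled KO, against 6.57 in WT. Differences of Hpgd among the 6 Utx arrays lie under the floor and are not counted.

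Of the receptors, Ptger4, the gene of the EP4 receptor for prostaglandin E2, was under the floor on most arrays. It read 7.02 in KO ESCs, against 6.87 in WT ESCs, and 8.58 on the Nanog KO array. In the DOX-treated MEFs it read 7.75 in the library labelled KO, against 6.67 in WT, and without DOX 6.82 in the library labelled KO, against 7.78 in WT. It exceeded the floor on 3 arrays, the library labelled KO with DOX, WT MEFs without DOX and the Nanog KO array.

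Ptgfr, the gene of the prostaglandin F2 alpha receptor, was also under the floor on most arrays. It read 4.53 in KO ESCs, against 4.99 in WT ESCs, and 7.08 on the Nanog KO array. Among MEFs with DOX it read 8.26 in the library labelled KO, against 5.0 in WT, and without DOX 6.41 in the library labelled KO, against 8.07 in WT. It exceeded the floor on 2 arrays, the library labelled KO with DOX and WT MEFs without DOX.

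**Figure D1:**
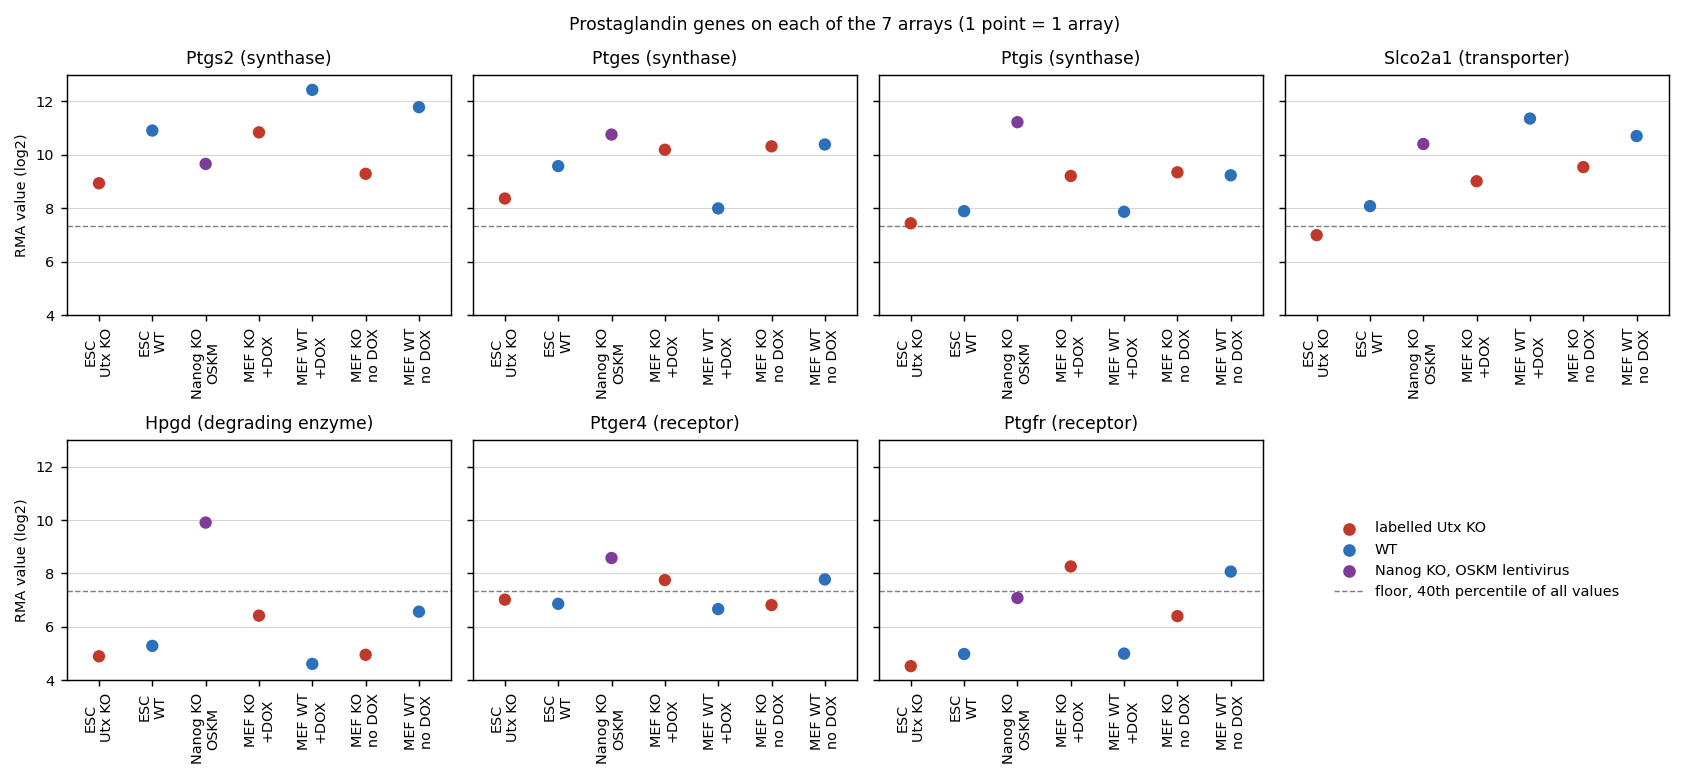
Deposited log2 values of the 7 measured genes, 1 panel per gene and 1 point per array, with the floor of 7.34 as a dashed line. Ptgs2 and Slco2a1 sit lower in the KO library of each pair, while Ptges and Ptgis are low in WT MEFs with DOX (7.99 and 7.87) and Hpgd exceeds the floor on the Nanog KO array only (9.90).

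In ESCs, the KO library had lower values for Ptgs2, Ptges and Slco2a1. Ptgs2 differed by -1.97, a 3.92-fold lower level, Ptges by -1.21, 2.32-fold lower, and Slco2a1 by -1.09. With the KO value set to the floor, Slco2a1 was at least 1.67-fold lower. Ptgis differed by -0.45. Both ESC libraries were under the floor for Hpgd, Ptger4 and Ptgfr. Of the 4 members above the floor 3 were thus 2-fold or more lower, against 3.18% of the 8598 genes measured above the floor, with a median of -1.15 for the members and 0.06 for those genes. None was 2-fold higher, against 0.651% of all genes. Part of this contrast chose the members, so nothing is read from the count.

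The ESC pair differed in fibroblast and epithelial markers as well. Of 12 fibroblast markers such as Col1a1, Postn and Lox, 8 exceeded the floor in an ESC library and 7 of these were 2-fold or more lower in the KO library. Their median difference was -2.83, and the log2 values of all 12 summed to 74.6 in KO ESCs and 97.6 in WT ESCs. Pluripotency markers stood at a median of 11.53 in KO ESCs and 11.27 in WT ESCs, all 10 above the floor in both. Of 9 epithelial markers, 7 exceeded the floor in an ESC library and 4 of these were 2-fold or more lower in the KO library (median -1.26). Whether cells with fibroblast or epithelial character carry the Ptgs2, Ptges and Slco2a1 signal of the WT ESC library was not tested. In such bulk RNA, fewer cells of a type and less RNA per cell cannot be told apart.

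In MEFs with DOX, Ptgs2 and the transporter gene were lower in the library labelled KO and both terminal synthase genes were higher. Ptgs2 differed by -1.59 and Slco2a1 by -2.34 between the library labelled KO and WT, 3.01-fold and 5.08-fold lower. Ptges differed by 2.19 and Ptgis by 1.34, 4.58-fold and 2.53-fold higher in the library labelled KO. Ptger4 differed by 1.09 and Ptgfr by 3.26, with WT under the floor, which makes them at least 1.33-fold and at least 1.90-fold higher. Of 6 members above the floor 4 were called higher, against 14.3% of 9572 genes, and 2 lower, against 12.1%. The 2 lower ones, Ptgs2 and Slco2a1, stand in the list because of that direction, so nothing is read from their count. Cell type markers differed in the same pair: 10 of 12 fibroblast markers were higher in the library labelled KO (median 4.33), 9 of 9 epithelial ones were lower (median -5.55), and 5 of the 6 macrophage markers above the floor were higher (median 2.65). Their part in the differences of the members was not tested.

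In MEFs without DOX, Ptgs2 differed by -2.49, a 5.63-fold lower level in the library labelled KO, and Slco2a1 by -1.16, 2.24-fold lower. Ptges and Ptgis were close, at -0.07 and 0.11. Ptgfr differed by -1.67, at least 1.66-fold lower with the KO value at the floor, and Ptger4 by -0.96. Of 6 members above the floor 3 were called lower, against 9.53% of 9253 genes, and 0 higher, against 5.04%. Ptgs2 and Slco2a1 stand in the list because of this direction, so nothing is read from the count. Macrophage markers were lower for all 12 above the floor (median -2.87) in the library labelled KO, fibroblast ones for 2 of 12 (median -0.53), and 3 of 4 epithelial ones were higher (median 2.92). With array medians aligned, 677 genes were higher and 685 lower in this pair, in place of 466 and 882.

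Only Ptgs2 and Slco2a1, of the 7 measured members, were lower in the KO library in all 3 pairs. This is what put them in the list. Over the 10673 genes above the floor on a Utx array, 9.34% were lower in all 3 pairs at any size, and 0.0843%, or 9 genes, by 2-fold or more each time. Aligned medians and quantile normalization each gave 7 genes in place of 9. Named after their values were seen, the 9 genes as deposited were Eif2s3y, Ptgs2, Hoxc6, Kdm6a, Tmem62, Slco2a1, Adgrg1, Fxyd5 and Serpinb9b. Ptgs2 had the second place by the smallest of its differences, -1.59, after Eif2s3y, a Y-linked gene, at -3.14. This order rests on the MEF pairs as labelled. With the WT MEF libraries exchanged, the smallest difference was -0.94 for Ptgs2 and -0.65 for Kdm6a, both short of 2-fold. Eif2s3y read 4.19 in KO ESCs, 5.42 in the library labelled KO with DOX and 4.46 in the one labelled KO without DOX, against 8.52, 8.56 and 8.28 in the WT libraries, and 8.51 on the Nanog KO array. The Utx KO values lie under the floor, which goes against the Y chromosome in their label, and the part of this in the result was not tested.

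**Figure D2:**
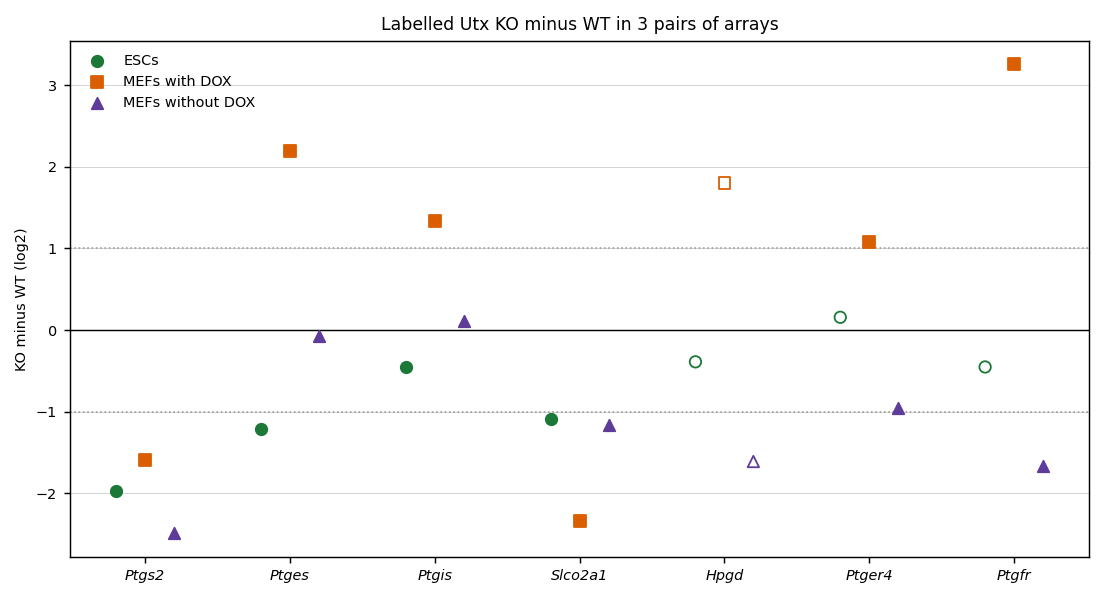
Difference between the library labelled KO and the WT library (log2) for each measured gene in ESCs, MEFs with DOX and MEFs without DOX. Open symbols lie under the floor on both arrays and dotted lines mark 2-fold. Ptgs2 (-1.97, -1.59 and -2.49) and Slco2a1 (-1.09, -2.34 and -1.16) lie below 0 in all 3 pairs, and Ptges (2.19) and Ptgis (1.34) lie above 2-fold in MEFs with DOX. The points of Ptger4 and Ptgfr there have WT under the floor, with bounds of at least 1.33-fold and at least 1.90-fold.

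Since the KO libraries go against their DOX labels by Pou5f1, each was set against both WT MEF libraries. Ptgs2 was lower in the KO-labelled library in 4 of 4 combinations, with differences from -3.14 to -0.94. Slco2a1 was 2-fold or more lower in 4 of 4, from -2.34 to -1.16. No other member kept 1 direction over the 4 combinations. The combinations share libraries and are not independent of each other or of the choice of these genes.

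The library labelled KO with DOX and WT MEFs without DOX were the most alike of the MEF arrays, with r = 0.972 across 21811 array rows, which are not independent. Between these arrays 44.8% of the genes above the floor differed by no more than 0.2, as did 5 members: Ptges differed by -0.20, Ptgis by -0.03, Hpgd by -0.15 under the floor, Ptger4 by -0.02 and Ptgfr by 0.19. Slco2a1 differed by -1.69, and 1.04% of 9024 genes had a lower difference. Ptgs2 differed by -0.94, short of 2-fold, and 2.95% of genes had a lower one. Both genes were chosen by their values on these arrays among others, so nothing is read from their places. Between these arrays 2.63% of genes were 2-fold or more lower and 1.88% higher. The library labelled KO without DOX had r = 0.921 with WT MEFs without DOX and 0.864 with WT MEFs with DOX. Its whole profile was thus nearer to the WT library of its own label, unlike its Pou5f1 value. Against WT MEFs with DOX, the library labelled KO without DOX differed by -3.14 for Ptgs2, -1.82 for Slco2a1, 2.32 for Ptges and 1.48 for Ptgis, where 13.7% of 9431 genes were 2-fold lower and 10.6% higher.

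**Figure D3:**
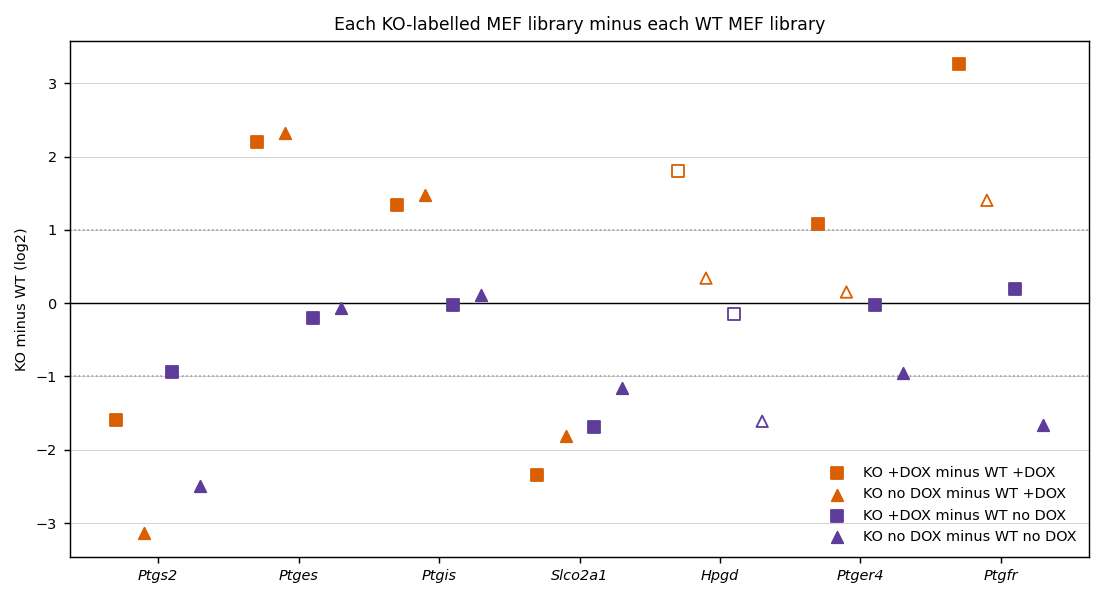
Difference between each KO-labelled MEF library and each WT MEF library (log2) for each measured gene, coloured by the WT library used. Open symbols lie under the floor on both arrays. Ptgs2 (-3.14 to -0.94) and Slco2a1 (-2.34 to -1.16) lie below 0 in all 4 combinations, whereas Ptges and Ptgis stand high only where WT MEFs with DOX are used.

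With DOX, WT MEFs had lower values for the terminal synthases and the receptors, but not for Ptgs2 and Slco2a1. Ptges differed by -2.39 between WT MEFs with and without DOX, 5.25-fold lower with DOX, and Ptgis by -1.36, 2.58-fold lower. Ptger4 differed by -1.11 and Ptgfr by -3.07, at least 1.35-fold and at least 1.66-fold lower with the value under DOX at the floor. Ptgs2 and Slco2a1 each differed by 0.65. Of 6 members above the floor 4 were lower, against 13.7% of 9524 genes, and 0 higher, against 11.9%, with a median of -1.24 for the members and 0.00 for all genes. These comparisons share WT MEF arrays with the genotype pairs above, so the low WT values of Ptges, Ptgis and Ptgfr with DOX enter both.

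Cell type markers differed between the same WT arrays. Fibroblast markers had a median of 7.63 with DOX and 11.85 without, with 10 of 12 lower by 2-fold or more. Macrophage markers had a median of 5.36 with DOX and 9.15 without, with all 12 members above the floor lower, and epithelial markers a median of 11.65 with DOX and 5.79 without. Summed over 13 macrophage markers the log2 values came to 71.6 with DOX and 119.8 without. On the array with DOX, 1 of 13 macrophage markers exceeded the floor, Cd68 at 9.21. Adgre1, a surface marker of macrophages, read 4.18 there and Lyz2, a macrophage lysozyme, 4.88, both under the floor. The part of macrophage, fibroblast or epithelial RNA in the values of Ptgs2, Slco2a1, Ptges, Ptgis, Ptger4 and Ptgfr was not tested.

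In the library labelled KO with DOX, Ptgs2 was 2.93-fold higher than in its counterpart labelled KO without DOX, a difference of 1.55. Ptgfr differed by 1.86, at least 1.90-fold higher. Ptges, Ptgis and Slco2a1 differed by -0.13, -0.14 and -0.53, and Ptger4 by 0.93. Of 6 members above the floor 2 were higher, against 6.81% of 9119 genes, and 0 lower, against 2.93%. With array medians aligned 481 genes were higher and 378 lower, in place of 621 and 267. Macrophage markers had a median of 6.85 in the library labelled with DOX and 6.29 in the one labelled without, and 5 of the 6 that exceeded the floor were called higher. Epithelial markers were lower in the library labelled with DOX for 4 of 4 above the floor (median -3.15) and pluripotency markers for 3 of 3 (median -2.23). In WT MEFs these lists were higher with DOX, for 9 of 9 and 2 of 2 above the floor. Since Pou5f1 goes against the DOX labels of the KO libraries, their differences are not read as an effect of DOX. The part of these markers in the members' differences was not tested.

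The Nanog KO fibroblasts had high Ptgis and Hpgd and low Ptgs2. Against WT MEFs with DOX, Hpgd differed by 5.29, at least 5.92-fold higher, Ptgis by 3.35 and Ptges by 2.76. Ptger4 differed by 1.91, at least 2.36-fold higher, and Ptgs2 by -2.77. The array as a whole read higher, with a median gene difference of 0.76, so that 37.2% of 10833 genes were 2-fold higher and 5.53% lower. Aligned medians gave 1281 higher and 1299 lower in place of 4032 and 599. So aligned, Hpgd differed by 4.55, Ptgis by 2.61, Ptges by 2.02, Ptger4 by 1.17, Slco2a1 by -1.69 and Ptgs2 by -3.51, which made 6 members 2-fold apart in place of 5.

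Against WT MEFs without DOX, Hpgd on the Nanog KO array differed by 3.33, at least 5.92-fold higher, Ptgis by 1.99 and Ptgs2 by -2.12. Here 35.1% of 10740 genes were 2-fold higher and 3.72% lower, and aligned medians gave 910 and 1064 in place of 3773 and 399. Aligned, Hpgd differed by 2.59, Ptgis by 1.24, Ptges by -0.37, Ptgs2 by -2.86, Slco2a1 by -1.04 and Ptgfr by -1.73. The difference of Ptges, 0.37 as deposited, thus turned with the scaling. The cells also differed in line and in how the factors were delivered, which cannot be told apart from the loss of Nanog.

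**Figure D4:**
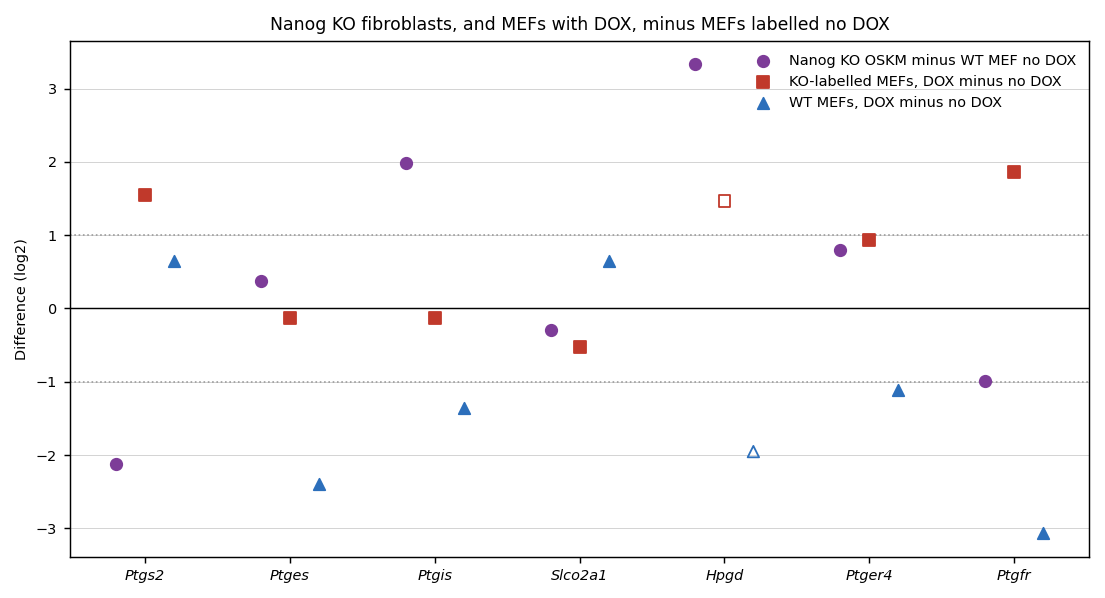
Differences (log2) for each measured gene: Nanog KO fibroblasts against WT MEFs without DOX, and MEFs with against without DOX in each genotype as labelled. Open symbols lie under the floor on both arrays, and the Nanog KO points include an array-wide shift of 0.73 in the median gene. Ptgfr lies at 1.86 in the KO-labelled MEFs and -3.07 in WT MEFs, and Ptgs2 at 1.55 in the KO-labelled and 0.65 in WT MEFs.

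WT ESCs had lower values than WT MEFs without DOX for Slco2a1, Ptgis and Ptgfr. Slco2a1 differed by -2.62, 6.15-fold lower in ESCs, Ptgis by -1.34, and Ptgfr by -3.08, at least 1.66-fold lower. Ptgs2 differed by -0.87, Ptges by -0.81 and Ptger4 by -0.91. Of 6 members above the floor 3 were lower, against 19.8% of 9673 genes, and 0 higher, against 14.5%. Ptgs2 in WT ESCs was thus within 2-fold of its level in WT MEFs without DOX, while WT MEFs with DOX read higher, at 12.43. The WT ESC array had a median of 5.03 for macrophage markers, 1 of 13 above the floor. For fibroblast markers it was 8.94, with 8 of 12 above the floor. The part of such cells in the Ptgs2 value was not tested.

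**Figure D5:**
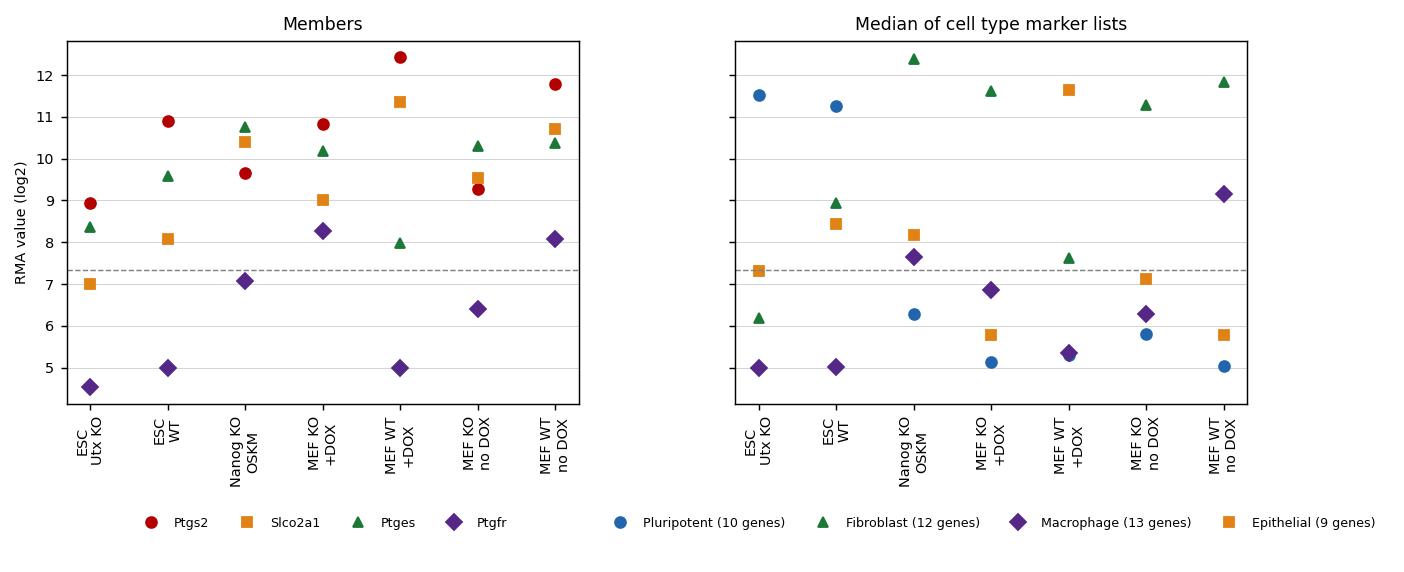
Left, log2 values of 4 members on each array. Right, median log2 value of the pluripotent, fibroblast, macrophage and epithelial marker lists on the same arrays, with the floor dashed in both panels. Levels are to be read within a gene or list: Ptgfr was above the floor only in the library labelled KO with DOX (8.26) and WT MEFs without DOX (8.07), while Ptgs2 and Slco2a1 peaked in WT MEFs with DOX (12.43 and 11.35). The part of any cell type in these values was not tested.

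Beyond the members, 33 genes were measured from a wider list of eicosanoid genes, which has 51 names counting older and newer names of a gene. Between the ESCs, 1 of 11 above the floor was 2-fold lower, against 3.18% of all genes: Anxa1, which encodes an inhibitor of phospholipase A2, at -3.29 in KO against WT. In MEFs with DOX the library labelled KO had 3 of 20 higher and 5 lower, against 14.3% and 12.1% of all genes. The lower ones were led by the epidermal lipoxygenase genes Alox12b at -6.73, Aloxe3 at -4.38 and Alox8 at -3.40, with the phospholipase gene Pla2g4e at -3.31. Alox5ap, which helps 5-lipoxygenase of leukocytes, differed by 2.35 and Pla2g15, a lysosomal phospholipase gene, by 2.25. The median of the list was -0.05, against 0.00 for all genes.

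The gene of the first step ran in another order than Ptgs2. Pla2g4a, the cytosolic phospholipase A2 that releases arachidonic acid, read 5.51 in KO ESCs, against 7.22 in WT ESCs, both under the floor. With DOX, MEFs read 10.11 in the library labelled KO, against 8.68 in WT, and without DOX 9.42 in the library labelled KO, against 9.62 in WT. For the MEF pair without DOX, 1 of 19 listed genes was higher and 4 were lower in the KO-labelled library, against 5.04% and 9.53% of all genes. Alox5ap differed by -2.39, Mgll, a monoacylglycerol lipase gene, by -1.61, Anxa1 by -1.49, the secreted phospholipase gene Pla2g2e by -1.33, and Zadh2, a prostaglandin reductase gene, by 1.06. The median was -0.10, against -0.11 for all genes.

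In WT MEFs with DOX against those without, 5 of 22 listed genes were higher and 3 lower, against 11.9% and 13.7% of all genes. Alox12b differed by 6.76, Aloxe3 by 4.18, Alox8 by 3.11 and Pla2g4e by 2.84, while Alox5ap differed by -4.09 and Pla2g15 by -1.67. The median was -0.03, against 0.00 for all genes. Between the KO-labelled libraries 0 of 17 differed by 2-fold, against 6.81% of all genes higher and 2.93% lower in the one labelled with DOX. On the Nanog KO array, Ptgds, the lipocalin-type synthase of prostaglandin D2, read 12.45, against 5.98 in WT MEFs with DOX, while Alox12b differed by -5.03, Aloxe3 by -3.15, Alox5ap by 2.36, Pla2g15 by 2.22 and Alox8 by -2.19. There 14 of 24 listed genes were 2-fold higher and 5 lower, against 37.2% and 5.53% of all genes, with a median of 1.29 against 0.76. Aligned medians gave 3 of 23 higher and 6 lower, against 13.1% and 13.3% of all genes. Set against WT MEFs without DOX, 11 of 21 were higher and 1 lower on the Nanog KO array, against 35.1% and 3.72% of all genes. With medians aligned these counts were 2 and 3, against 9.41% and 11% of all genes. Ptgds differed by 6.54 there. WT ESCs had 3 of 19 higher and 8 lower than WT MEFs without DOX, against 14.5% and 19.8% of all genes. Among them were Mgll at -3.05, Pla2g4a at -2.40 and Pla2g5, a secreted phospholipase gene, at 2.16.

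The 5 genes whose values ran most like those of Ptgs2 over the 7 arrays were Sgms1, Plaur, Dusp1, Ptprz1 and Fhdc1, with Pearson r from 0.915 to 0.937 among 11588 genes. Plaur encodes the urokinase receptor and Dusp1 a phosphatase of MAP kinases. For Slco2a1 they were Cttnbp2nl, Niban2, Tagln2, Zfpm1 and Rusc2, with r from 0.979 to 0.991. Without the 2 arrays farthest from the median of each gene, r was 0.784 to 0.908 for the first set and 0.938 to 0.981 for the second. Over the 6 Utx arrays, the 5 most alike held 0 of the same genes for Ptgs2 and 3 for Slco2a1. Ptgs2 and Slco2a1 themselves correlated at r = 0.622, which placed Slco2a1 at rank 244 of genes like Ptgs2. The points share arrays, cell types and scaling, and the values describe these 7 arrays only.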

How the data were processed

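Gene expression was measured on 1 Affymetrix array in each of 7 mouse samples, grouped by their labels. The deposited log2 values come from RMA in Affymetrix Expression Console, per the submitters' processing notes, a method of background correction, normalization between arrays and probe summary. The sources used here state neither versions and build nor whether the Nanog KO array was normalized with the others. A multi-array normalization fixes the overall level, so differences are relative to the other genes.

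The table held 21811 rows and 0 missing values. The platform annotation gave 1 gene symbol to 14894 rows, several to 925 and none to 5992. For 754 of 13562 genes with several rows, the row with the highest mean stood for the gene. Each measured member had 1 row.

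Differences between 2 arrays were counted at 2-fold where the higher value exceeded the 40th percentile (7.34). For members, a fold as deposited with its lower side under that floor is given as at least the fold from the floor. Differences of other genes are given without that bound, also where their lower side is under the floor. No test was run: each condition has 1 array, and the direction over the 3 KO and WT pairs chose part of the members. Members and lists were chosen with earlier results of these data known. Named were the members, list members 2-fold apart (at most 6 of the eicosanoid and 4 of the stimulus-induced list per comparison), the 5 genes most like Ptgs2 and Slco2a1, and Kdm6a and Pou5f1. Pla2g4a and the 9 genes lower in all pairs were named after their values were seen. Alternatives were aligned medians, quantile normalization, floors, a 1.5-fold threshold, row means and other pairings. The counting was tested on simulated data. Scripts ran in Python 3.11.15 (pandas 2.3.3, numpy 2.4.6, matplotlib 3.10.9, scipy 1.17.1).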

Additional observations from a re-analysis of the deposited data

Results flagged for a closer look

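With the libraries taken as labelled, the measured differences of Ptgfr had opposite signs between groups under the same contrast. With DOX against without, it differed by 1.86 in the KO-labelled MEFs and by -3.07 in WT MEFs. The library labelled KO against WT differed by 3.26 with DOX and by -1.67 without. The lower side of each lies under the floor, so the bounds are at least 1.90-fold higher for the positive differences and at least 1.66-fold lower for the negative ones. Each value rests on 1 array per condition, both contrasts use the same 4 arrays, and the difference between the groups was not tested. The opposite signs also depend on DOX labels that Pou5f1 goes against in the KO libraries (5.12 with, 11.26 without). If those labels were exchanged, Ptgfr would be lower with DOX in both genotypes. KO against WT would then give 1.40 with DOX, both values under the floor, and 0.19 without. Macrophage markers, summed over 13 genes on the log2 scale, were, with DOX, 95.7 in the library labelled KO and 71.6 in WT MEFs, and, without DOX, 84.5 in the library labelled KO and 119.8 in WT MEFs. Ptgfr exceeded the floor on those arrays of the pairs where this sum was higher. The sum over 12 fibroblast markers was higher on the same arrays. It came to 139.7 for KO-labelled and 94.1 for WT MEFs given DOX, and to 131.3 and 139.6 for those not given it. On the Nanog KO array, which read higher as a whole, the macrophage sum was 107.6 and the fibroblast sum 146.1. Ptgfr read 7.08 there, under the floor. The part of macrophage or fibroblast RNA in the differences of Ptgfr was not tested.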

How the results depend on the processing

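The labels carry no replicate numbers to pair samples by. A fit over the 3 KO and WT pairs, with the pair as a block, could be made and was left out, since the shared direction in these pairs chose Ptgs2 and Slco2a1. Aligned medians and quantile normalization kept the sign of every member counted as 2-fold different in the 8 comparisons. Set against the other WT MEF library, Ptgs2 and Slco2a1 kept theirs. Turned signs were those of Ptgfr in the library labelled KO without DOX (1.40) and, in the one labelled KO with DOX, of Ptges (-0.20), Ptgis (-0.025) and Ptger4 (-0.024). The cause was not tested. At 1.5-fold, a lower bar by construction, all-gene counts were 808 for the ESC pair, 4115 and 3224 for the MEF pairs with and without DOX, 2424 and 3789 for DOX in KO-labelled and WT MEFs, 7243 and 6952 for Nanog KO against WT MEFs with and without DOX, and 5280 for ESCs against MEFs. Members counted were then 6 in WT MEFs with against without DOX and in ESCs against MEFs, as deposited 4 and 3, and 5 for Nanog KO against WT MEFs without DOX, as deposited 3. With the floor at the 60th percentile (8.48), which tests fewer genes, counts were 178 for the ESC pair in place of 329, 864 for MEFs without DOX in place of 1348, and 540 for DOX in KO-labelled MEFs in place of 888. Members counted were then 1 for DOX in KO-labelled and 2 in WT MEFs. For the Nanog KO array, aligned medians gave 2580 and 1974 genes against WT MEFs with and without DOX, quantile normalization 2595 and 1994, in place of 4631 and 4172, with 5 members in place of 3 under aligned medians against WT MEFs without DOX. Genes lower in the KO library of all 3 pairs numbered 997, and 9 by 2-fold. Aligned medians gave 882 and 7, and quantile normalization 949 and 7. In choices added after the data were seen, the ESC and no-DOX pairs alone gave 2710 and 132, the ESC and DOX pairs 2069 and 48, both MEF pairs 2705 and 74, and exchanged WT MEF libraries 1326 and 7. With 1 array per condition, culture-to-culture spread is unknown, and values under the floor have no reliable order.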

Other observations

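Ptgs2 belongs to the genes that cells switch on within a short time of a growth factor or cytokine, and 23 of 27 listed genes of that kind were measured. For the MEF pair without DOX, 11 of 22 were lower by 2-fold or more and 0 higher in the KO-labelled library, against 9.53% and 5.04% of all genes, with a median of -1.03 against -0.11. The cytokine gene Il6 differed by -3.54, the chemokine gene Ccl2 by -2.98, the transcription factor gene Egr2 by -2.46 and the hyaluronan synthase gene Has2 by -1.83. Il6 (4.34) and Egr2 (6.64) read under the floor in the KO-labelled library, so their folds are bounded only from the floor. The same library was 2-fold or more lower for all 12 macrophage markers above the floor, and their part in these values was not tested.

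In MEFs with DOX, 5 of 19 were lower and 2 higher in the library labelled KO, against 12.1% and 14.3% of all genes, with Nr4a1, a nuclear receptor gene, at -2.53, Fosb, a component of AP-1, at -2.11, Has2 at 3.67 and Ccl2 at 2.03. The median was -0.17, against 0.00 for all genes. In ESCs 3 of 11 were called lower and 0 higher in the KO library, against 3.18% and 0.651% of all genes. Ccl2 differed by -2.02, Ier3 by -1.59 and Has2 by -1.32. The median was -0.28, against 0.06 for all genes. In KO ESCs, Ccl2 (6.27), Ier3 (5.90) and Has2 (6.25) read under the floor. Bounded from the floor, none of them is shown to be 2-fold lower, so nothing is read from this count. Dusp1, a phosphatase gene of this list, read 9.42 in KO ESCs, against 10.31 in WT ESCs. The MEF libraries with DOX read 9.55 in the library labelled KO, against 11.00 in WT, and without DOX 9.26 in the library labelled KO, against 10.58 in WT. It was 1 of 9 genes, out of 22 of this list above the floor on a Utx array, that were lower at any size in the KO library of all 3 pairs, against 9.34% of all genes. None of the 9 was 2-fold lower each time. The others were Fos, Fosb, Fosl1, Jun, Junb, Ier3, Ereg and Nfkbia, and all 9 were singled out after their values were seen. Fosb, Fosl1, Junb and Ereg were under the floor in both ESC libraries, so their direction there is not reliable. With the WT MEF libraries exchanged, Junb and Nfkbia turned. Junb read 8.13 in the library labelled KO with DOX, against 7.79 in WT MEFs without DOX. Nfkbia read 9.22 in the library labelled KO without DOX, against 9.09 in WT MEFs with DOX.

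In WT MEFs with DOX against those without, 7 of 22 were lower and 2 higher, against 13.7% and 11.9% of all genes, with Ccl2 at -4.70, Il6 at -4.47, Has2 at -4.23 and Cxcl1, a chemokine gene, at -2.52. With DOX, Ccl2 (7.30), Il6 (3.41), Has2 (7.03) and Cxcl1 (5.93) read under the floor. Ptgs2 differed by 0.65 between the same arrays. Between the KO-labelled libraries 1 of 17 was higher in the one labelled with DOX, Has2 at 1.27, and 0 were lower, against 6.81% and 2.93% of all genes. The Nanog KO array had 7 of 20 higher and 7 lower than WT MEFs with DOX, against 37.2% and 5.53% of all genes, with Egr1 at -3.53, Has2 at 3.48, Nr4a1 at -3.25 and Fosl1 at -3.24. Against WT MEFs without DOX it had 1 of 22 higher and 10 lower, against 35.1% and 3.72% of all genes, with Egr1 at -3.80. Aligned medians gave 2 of 18 higher and 8 lower against WT MEFs with DOX, beside 13.1% and 13.3% of all genes. Against those without DOX they gave 0 of 22 higher and 14 lower, beside 9.41% and 11% of all genes. WT ESCs had 14 of 22 lower and 0 higher than WT MEFs without DOX, against 19.8% and 14.5% of all genes, with Ccl2 at -3.71 and Has2 at -3.68.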
